A study of Coryphaena hippurus with 27 samples.

Results

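Slick oil was compared with clean seawater in mahi-mahi (Coryphaena hippurus) at 96 hours post fertilisation (hpf), in 3 oil-exposed and 3 control small RNA libraries out of 27 in the series. All miRNA names of the 96 hpf slick oil table entered, 1166 in number, and 671 of them, from 124 miRNA numbers, had counts high enough to be tested. The 495 others had between 1 and 64 counts summed over the 6 libraries. Both groups descended from wild-caught broodstock that spawned in 1 hatchery, and embryos were placed in the test water soon after fertilisation and held at 27 °C without renewal. The oil group received a dilution of the high-energy water-accommodated fraction (HEWAF, oil sheared into seawater) of slick oil, oil skimmed off the Gulf surface during the Deepwater Horizon spill, at a labelled concentration of 1 g/l, and the controls received 0 g/l and no agent. Each library was made from total RNA of a pool of 30 whole animals, labelled whole embryo at every stage, so variation between animals was averaged within a library. The labels do not say whether the 3 pools of a group came from separate spawns. The p-values can therefore speak only for these pools, whose counts mostly differed by no more than sampling noise, as given below. Libraries are named here by the numbers 7, 8 and 9 in their titles.

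miRNAs are short RNAs cut from a hairpin precursor. Either strand of the hairpin, the 5p arm or the 3p arm, can be loaded into an Argonaute protein, where it pairs with mRNAs, mostly in their 3′ untranslated regions, and lowers their translation and stability. Many vertebrate miRNAs belong to 1 tissue, such as miR-122 in liver, miR-1 and miR-206 in muscle, miR-9 in the nervous system and miR-144 and miR-451 in red blood cells. In fish larvae, crude oil is known for effects on the heart, and its polycyclic aromatic hydrocarbons for activating the aryl hydrocarbon receptor.

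The controls held 63162, 70501 and 75228 counts in libraries 7, 8 and 9, and the slick oil libraries held 93055, 91495 and 89482. The groups did not overlap, and an exact two-sided permutation test of 3 against 3 gave p = 0.1, the smallest it allows. Detected names numbered 900, 926 and 948 in controls and 1005, 1000 and 993 under slick oil, with the same exact p = 0.1. The most abundant name of a library took 0.989 to 1.013% of the counts in controls and 0.7576 to 0.7705% under slick oil. In 5 of the 6 pairs of libraries within a group the counts differed by no more than sampling noise (chi-square per degree of freedom 0.636 to 0.968). Control libraries 7 and 8, at 0.968, were close to sampling noise, and slick libraries 7 and 9 differed by more than it (1.17). Between 4.75 and 6.61% of names held identical counts in such a pair. Of the tissue lists used below, those of muscle, blood, nerve, liver, pancreas, cartilage, vessel and epithelium all had tested members. In such bulk libraries fewer cells of a type and less RNA per cell cannot be told apart. Levels below are normalised counts per 70000, given for libraries 7, 8 and 9 or as mean ± SD with n = 3, and fold changes are log2 values ± SE. Adjusted p-values come from edgeR's quasi-likelihood test with Benjamini-Hochberg adjustment over the 671 names, with a threshold of 0.05.

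Under slick oil 403 of the 671 tested names passed (60.1%), 218 higher (32.5%) and 185 lower (27.6%) than in controls. The 3 slick oil libraries lay outside the range of the 3 controls in 443 names (66%), above it in 227 (33.8%) and below it in 216 (32.2%). Names that rose moved further, with a median log2 fold change of 0.71, 72 names beyond 1 and 17 beyond 2. Those that fell had a median of -0.37, with 14 names beyond -1 and 0 beyond -2. The rises include 24 names that had enough counts for testing in slick oil libraries alone. The falls include 4 that had them in control libraries alone. Such names entered through the group where they were high, so the sizes of rises and falls are not compared on equal terms. The authors' deposited table called 356 of 818 names with an adjusted p (43.5%), of which 186 were higher (22.7%) and 170 lower (20.8%). Both fits shared 342 calls, all of the same sign, which is 96.1% of the calls in the authors' deposited table and 84.9% of those given here.

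The direction of change went with abundance. Among 105 names with a mean of at least 200 normalised counts, 4 rose and 71 fell, with a median log2 fold change of -0.27. Among 133 names with a mean below 20, 54 rose and 11 fell, with a median of 0.29. The 152 names between 100 and 200 split into 49 higher and 52 lower. Names that rose had a median level of 37.5 and names that fell one of 142. The library totals and the number of detected names were also higher under slick oil, as given above, and their part in this trend was not tested. When the trend was removed by cyclic loess scaling, 180 names were higher and 181 lower, and scaling by library size alone gave 234 and 152. Where it changed the call or the sign of a miRNA whose fold change is given below, the loess value stands beside it.

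**Figure D1:**
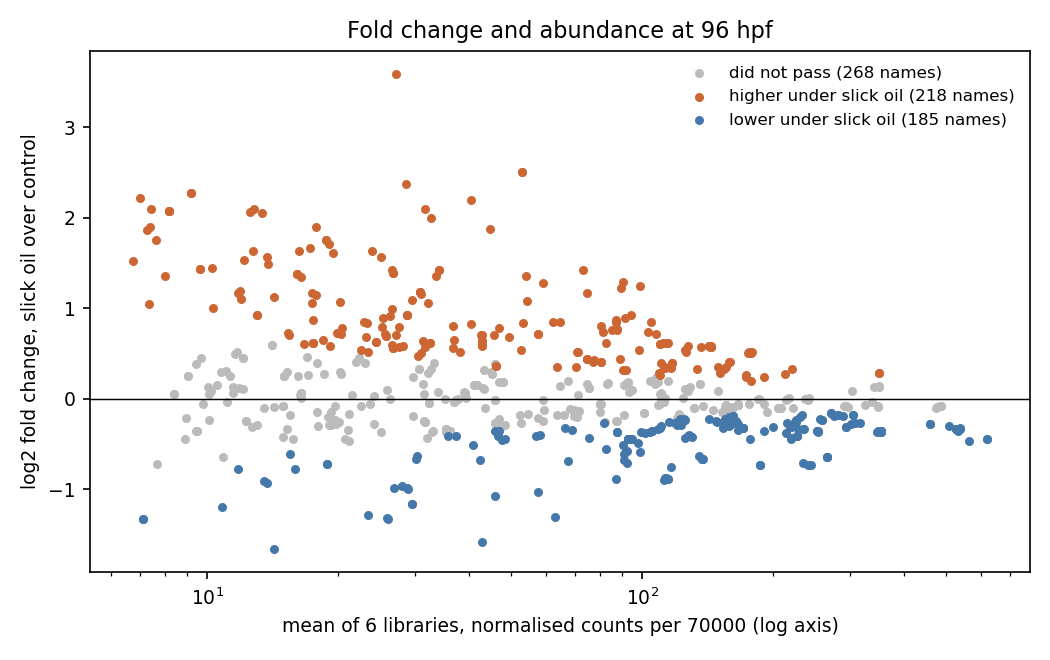
Log2 fold change of slick oil over control (vertical axis) against the mean of the 6 libraries in normalised counts per 70000 (horizontal log axis), 1 point per tested name, coloured by whether it passed the test. The 218 higher names spread up to 3.58 and lie mostly at low levels, and at 200 or more normalised counts 71 of 105 names were lower.

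Names that share a miRNA number are often copies of 1 mature sequence with nearly equal counts, so directions were also counted by number. Of the 124 numbers 98 had at least 1 call, 45 of them only higher, 25 only lower and 28 in both directions, while 26 had none. In 13 numbers with 3 or more tested names every name rose, namely miR-16, miR-17, miR-23, miR-34, miR-92, miR-103, miR-107, miR-138, miR-205, miR-365, miR-429, miR-451 and miR-454. In 5 such numbers every name fell, namely miR-21, miR-142, miR-144, miR-218 and miR-499. Copies count as names here, so 3 or more names need not be as many separate measurements. Names of miR-34 and the 3p names of miR-365 had enough counts for testing mainly in slick oil libraries, which favoured their rise.

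The entry with the highest fold change was miR-7641, an entry that may be a piece of ribosomal RNA and no true miRNA. Its levels were 1.14, 7.14 and 3.76 in the controls and 50.5, 68.4 and 31.9 under slick oil (log2 fold change 3.58 ± 0.35 with adjusted p = 8.002e-11). The control libraries were close to 0 for this entry and every slick oil library was far above them, with a wide spread among the latter. Next came the 3p arm of miR-214, a miRNA of mesenchyme and developing skeleton, at 15.9, 18.4 and 13.2 in the controls and 74.7, 96.5 and 98.03 under slick oil. This is 5.66-fold higher (log2 fold change 2.501 ± 0.18 with adjusted p = 1.544e-14), and the groups are far apart. miR-15c-5p, of the miR-15 and miR-16 family that represses cell cycle genes, was at 12.5, 14.3 and 15.99 in the controls and 63.00, 60.8 and 75.2 under slick oil (log2 fold change 2.198 ± 0.19 with adjusted p = 5.668e-12). The neuronal, activity-linked miR-132-3p was at 10.2, 10.2 and 15.1 in the controls and 44.7, 52.4 and 57.8 under slick oil (log2 fold change 2.097 ± 0.22 with adjusted p = 2.404e-10). In both of these the lowest slick oil library was well above the highest control. The names given as highest and lowest were picked only among those without overlap between groups, as were 66% of all tested names. miR-462, which with miR-731 is expressed from 1 locus in fish and is known in zebrafish to respond to hypoxia, was at 18.2, 17.3 and 21.6 in the controls and 64.5, 57.01 and 89.7 under slick oil (log2 fold change 1.87 ± 0.19 with adjusted p = 2.021e-10). Also among the highest were miR-122-3p (2.05 ± 0.31), miR-18a-3p (1.89 ± 0.28), miR-34a-5p (1.71 ± 0.27), miR-462a-5p (1.67 ± 0.28) and miR-727-5p (1.63 ± 0.28). These 5 had control means between 5.16 and 8.73 normalised counts. They reached the mean of at least 10 required of named miRNAs only through the slick oil libraries. The filter required enough counts in 3 libraries, and 24 names met it in slick oil libraries alone, among them miR-7641, miR-122-3p, miR-462a-5p, miR-727-5p, miR-15b, miR-155 and miR-145-5p. Such names could enter only by being higher under slick oil, and all 24 were called higher, 23 of them among the 54 rises at a mean below 20. The 5 names that met it in control libraries alone had 4 calls, all lower.

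The lowest fold changes belonged to the 3 names of miR-144, a red blood cell miRNA. miR-144-3p was at 27.3, 15.3 and 22.6 in the controls and 8.06, 6.08 and 6.08 under slick oil (log2 fold change -1.66 ± 0.27 with adjusted p = 1.610e-06), and miR-144-5p at 54.5, 65.3 and 72.4 in the controls and 22.7, 20.5 and 21.3 under slick oil (log2 fold change -1.58 ± 0.17 with adjusted p = 5.603e-10). Controls and slick oil libraries were separate in both arms. miR-459, a fish miRNA found in the gut of zebrafish, fell from 40.8 ± 4.598 to 18.2 ± 4.18 (log2 fold change -1.16 ± 0.202 with adjusted p = 5.290e-06), and miR-2187-3p fell from 15.1 ± 1.13 to 6.495 ± 0.719 (log2 fold change -1.196 ± 0.26 with adjusted p = 0.001395). The 3p arm of miR-182, a miRNA of photoreceptors and hair cells, was at 79.5, 77.5 and 75.3 in the controls and 43.95, 42.6 and 26.6 under slick oil (log2 fold change -1.03 ± 0.15 with adjusted p = 1.908e-07). Slick library 9 was the lowest of the 6. miR-142, specific to blood cells, was at 39.7, 30.6 and 44.2 in the controls and 20.5, 16.7 and 20.5 under slick oil (log2 fold change -0.99 ± 0.202 with adjusted p = 6.176e-05). The glial and neuronal miR-338-3p was at 24.98, 14.3 and 15.1 in the controls and 8.79, 10.6 and 8.36 under slick oil (log2 fold change -0.93 ± 0.26 with adjusted p = 0.00478). Control library 7 was its highest by far, and without it the call was lost (-0.67, adjusted p = 0.0985). miR-734-5p of the fish-restricted group fell from 113 ± 8.14 to 61.1 ± 15.2 (log2 fold change -0.88 ± 0.12 with adjusted p = 8.194e-08).

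**Figure D2:**
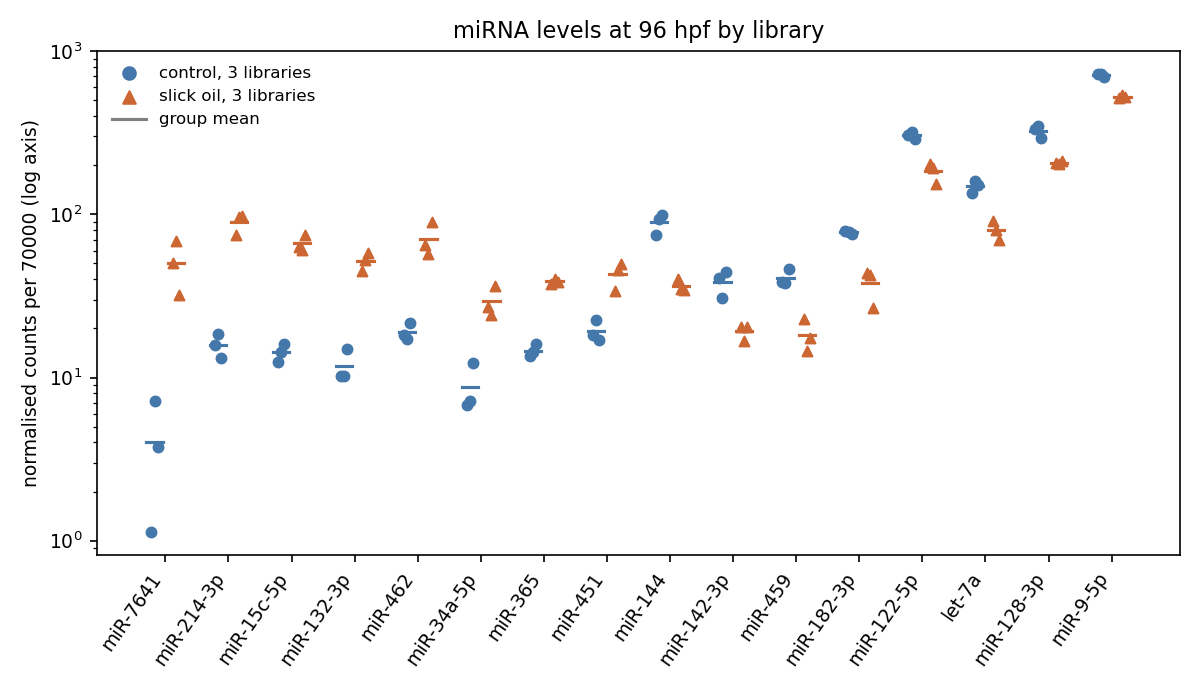
Normalised counts per 70000 (vertical log axis) of 16 miRNA names in each of the 3 control libraries (circles) and 3 slick oil libraries (triangles), with lines at the group means. In all 16 names the libraries of the 2 groups do not overlap, from miR-7641, whose controls lie between 1.14 and 7.14, to miR-9-5p, whose controls lie near 717. The highest and lowest names were picked only among names without overlap, and some others after their values were seen. Of all tested names 66% did not overlap.

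The red blood cell list moved in opposite directions within itself. All 3 names of miR-144 fell and all 4 names of miR-451 rose, although in vertebrates both are transcribed from 1 locus and accumulate as red cells mature. miR-144 was at 74.95, 93.8 and 99.7 in the controls and 40.3, 34.97 and 34.2 under slick oil (log2 fold change -1.303 ± 0.14 with adjusted p = 2.399e-10). miR-451, which is cut by Argonaute2 rather than by Dicer, was at 18.2, 22.4 and 16.9 in the controls and 33.7, 45.6 and 49.4 under slick oil (log2 fold change 1.16 ± 0.21 with adjusted p = 9.046e-06). Each pair of groups was fully separated, and the sum over the list, 229 to 262 in the controls and 206 to 259 under slick oil, overlapped. Sums over a list, here and below, add every tested name. Copies of 1 mature sequence therefore enter more than once, and a sum is not the level of a miRNA. Among white blood cell miRNAs 3 of 10 tested names rose and 4 fell (median log2 fold change -0.25). The share called was 70%, against 60.1% over all names. The 4 that fell were the names of miR-142. miR-155, of activated immune cells, was at 6.81, 4.08 and 4.704 in the controls and 13.9, 14.4 and 13.7 under slick oil (log2 fold change 1.43 ± 0.29 with adjusted p = 4.807e-04), and with the abundance trend removed it did not pass (0.804, adjusted p = 0.0706). With that scaling the list had 0 higher and 5 lower. miR-155 met the count filter in slick oil libraries alone, which favoured its rise. Its 2 tested names had the same fold change and made up 2 of the 3 rises, so the share called was favoured too. The list had 5 names higher without control library 8 or slick library 8. The inflammation-linked miR-146a, at -0.06 ± 0.09 (adjusted p = 0.631), and the myeloid miR-223-5p, at -0.44 ± 0.205 (adjusted p = 0.0643), did not pass. With the abundance trend removed miR-223-5p did pass as lower (-0.65, adjusted p = 0.00392), as it did with DESeq2 size factors (-0.46, adjusted p = 0.0336). It also passed without slick library 7 (-0.66, adjusted p = 0.0194), without slick library 8 (-0.498, adjusted p = 0.0471) and with replicate number as a block (-0.45, adjusted p = 0.0363).

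In skeletal and cardiac muscle 12 of 34 tested names rose and 13 fell (median log2 fold change -0.17), and the miRNAs divided by number. The share called was 73.5%, against 60.1% over all names. All 11 calls among the 17 names of miR-133 were higher, and all 5 names of miR-499, which is encoded within a slow and cardiac myosin gene, were lower. miR-133b-3p was at 34.1, 23.5 and 33.9 in the controls and 79.8, 70.7 and 82.8 under slick oil (log2 fold change 1.35 ± 0.15 with adjusted p = 8.869e-10). miR-133a, which in the mouse heart restrains smooth muscle genes and proliferation, rose from 116 ± 3.32 to 172 ± 5.32 (log2 fold change 0.57 ± 0.08 with adjusted p = 9.247e-08). miR-499-5p was at 169, 171 and 167 in the controls and 114, 109 and 96.5 under slick oil (log2 fold change -0.67 ± 0.08 with adjusted p = 7.716e-09), with its controls within a few counts of each other and every slick oil library far below. The most abundant names, miR-206 and miR-1, were lower by small amounts, from 504 ± 24.9 to 414 ± 12.7 (log2 fold change -0.28 ± 0.06 with adjusted p = 3.343e-05) and from 300.04 ± 7.52 to 265 ± 11.3 (log2 fold change -0.18 ± 0.06 with adjusted p = 0.0109). Without slick library 7 the call for miR-1 was lost (-0.14, adjusted p = 0.0789). Both turned, after removal of the abundance trend, to 0.01 and 0.01 and did not pass, where the list had 12 higher and 10 lower with a median of 0.01. The cardiac miR-208 had too few counts to be tested.

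In the neural list 23 of 99 tested names rose and 28 fell (median log2 fold change -0.23), beside 32.5% higher and 27.6% lower over all names. Its sum over names, copies included, was 10249 to 11011 in the controls and 8799 to 8996 under slick oil, without overlap. The falls were mostly in miR-9, of neural progenitors, with 17 of 28 names lower and 0 higher, and in miR-128, of neurons, with 6 of 7 lower and 1 higher. miR-128-3p was at 335, 348 and 294 in the controls and 206, 204 and 212 under slick oil (log2 fold change -0.65 ± 0.07 with adjusted p = 1.688e-10). miR-9-5p, the most abundant name here, was at 723, 728 and 699 in the controls and 514, 536 and 522 under slick oil (log2 fold change -0.45 ± 0.05 with adjusted p = 8.869e-10). Both are clearly separated between groups. After removal of the abundance trend miR-128-3p was still lower (-0.47, adjusted p = 8.651e-11), and miR-9-5p (-0.096, adjusted p = 0.0572) and miR-9-3p (-0.01, adjusted p = 0.873) did not pass. The rises were all 6 names of miR-138, which in rodents acts at synapses, 4 of 6 names of miR-212, 3 of 5 of miR-132, 3 of 7 of miR-137, 3 of 9 of miR-219, 2 of miR-124 and 1 each of miR-128 and miR-338. miR-138 itself (log2 fold change 0.58 ± 0.19 with adjusted p = 0.00918) did not pass with the abundance trend removed (0.37, adjusted p = 0.109), without control library 8 (0.49, adjusted p = 0.05700) or without slick library 9 (0.49, adjusted p = 0.0526). DESeq2 did not call it either (0.55, adjusted p = 0.0712). miR-124, of differentiated neurons, had 2 of 13 names higher and 0 lower, and miR-153 had 0 of 12 called. The neural count of higher names was 15 without control library 7, 14 without control library 9 and 9 with the abundance trend removed, where 41 were lower.

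Among eye and sensory organ miRNAs 9 of 22 tested names rose and 5 fell (median log2 fold change -0.01). The share called was 63.6%, against 60.1% over all names. The number of lower names was 3 without control library 8 or slick library 7, and 3 when scaled by library size. Both names of miR-211 and 5 of 6 of miR-204, related miRNAs of pigment epithelium and lens, rose, and miR-204a went from 147 ± 8.47 to 209 ± 13.3 (log2 fold change 0.51 ± 0.07 with adjusted p = 3.626e-07). In the cluster of miR-183, miR-96 and miR-182, which is shared by photoreceptors and hair cells, 5 names were lower and 1 was higher. miR-183-5p was at 546, 583 and 552 in the controls and 437, 471 and 460.5 under slick oil (log2 fold change -0.298 ± 0.05 with adjusted p = 8.643e-06), and with the abundance trend removed it was at 0.02, adjusted p = 0.781. miR-182-5p did not pass (log2 fold change -0.09 ± 0.06 with adjusted p = 0.219), and by the same scaling it passed as higher (0.15, adjusted p = 0.0237). The median of this list was 0.13 with that scaling and 0.05 by library size.

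Liver and gut miRNAs had 10 of 20 tested names higher and 8 lower (median log2 fold change 0.32), beside 32.5% higher and 27.6% lower over all names. Of the 10 rises 3 were names of miR-122, among them miR-122-3p, which met the count filter in slick oil libraries alone. The filter favoured that rise, and with it the count of higher names and the median. While the median was above 0, the sum over the list, copies included, fell, from 2307 to 2353 in the controls to 1916 to 1977 under slick oil, without overlap. With the abundance trend removed the list had 7 higher and 8 lower, with a median of 0.06. miR-122-5p, the most abundant miRNA of hepatocytes and a regulator of lipid metabolism, was at 308, 320.2 and 288 in the controls and 204, 192 and 154 under slick oil (log2 fold change -0.73 ± 0.07 with adjusted p = 1.688e-10). Slick library 9 was the lowest, and all 3 lay far below the controls. miR-192-5p, of liver and gut epithelium, fell from 263 ± 7.54 to 208 ± 0.802 (log2 fold change -0.33 ± 0.06 with adjusted p = 2.311e-05). miR-194, which shares a locus with miR-192 in mammals, rose from 69.1 ± 4.202 to 91.9 ± 6.79 (log2 fold change 0.41 ± 0.11 with adjusted p = 0.00238). In the pancreas and endocrine list 5 of 23 tested names rose and 14 fell (median log2 fold change -0.23). The share called was 82.6%, against 60.1% over all names. The acinar miR-216a was at 56.8, 67.3 and 62.1 in the controls and 37.4, 29.6 and 21.3 under slick oil (log2 fold change -1.07 ± 0.17 with adjusted p = 8.992e-07), and the endocrine miR-7-5p fell from 189 ± 7.28 to 152 ± 10.5 (log2 fold change -0.32 ± 0.07 with adjusted p = 4.080e-04). In both the groups were separate. Of the 6 tested names of miR-216, 4 were lower and 0 higher, with log2 fold changes from -1.33 to -0.13. miR-217, on the same list, went mostly the other way, with 3 of 4 names higher and 1 lower. The islet miR-375-3p was at log2 fold change -0.21 ± 0.07 with adjusted p = 0.0333, a call lost without control library 8 (-0.18, adjusted p = 0.114), without slick library 7 (-0.203, adjusted p = 0.06499), 8 (-0.199, adjusted p = 0.0702) or 9 (-0.202, adjusted p = 0.0675), and with the abundance trend removed (-0.14, adjusted p = 0.178).

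Among miRNAs of mesenchyme and cartilage 4 of 20 tested names rose and 13 fell (median log2 fold change -0.35), and 11 of the 13 falls were names of miR-199. The share called was 85%, against 60.1% over all names. With the abundance trend removed the list had 4 higher and 7 lower, with a median of -0.13. miR-199, which shares a transcript with miR-214 in vertebrates, was at 419, 382 and 396 in the controls and 322, 324 and 285 under slick oil (log2 fold change -0.36 ± 0.06 with adjusted p = 2.980e-06), and with the abundance trend removed it did not pass (-0.12, adjusted p = 0.0678). The cartilage miR-140-3p rose from 315 ± 36.3 to 387 ± 13.2 (log2 fold change 0.29 ± 0.06 with adjusted p = 2.004e-04). Among vessel and smooth muscle miRNAs 13 of 53 tested names rose and 12 fell (median log2 fold change -0.06), a share called of 47.2% against 60.1% over all names. All 5 names of miR-23, of endothelium, rose, and miR-23-3p was at 45.4, 27.5 and 46.1 in the controls and 98.2, 106 and 115 under slick oil (log2 fold change 1.42 ± 0.13 with adjusted p = 3.244e-11). Endothelial miR-126-3p was at log2 fold change -0.18 ± 0.06 with adjusted p = 0.00967. This call was lost without slick library 8 (-0.16, adjusted p = 0.0535), and with the abundance trend removed the value turned to 0.03. miR-222-3p, also endothelial, fell from 259.7 ± 28.4 to 195 ± 5.61 (log2 fold change -0.42 ± 0.07 with adjusted p = 3.241e-06), and miR-221 had 0 of 3 names called. In epithelium 11 of 30 tested names rose and 7 fell (median log2 fold change 0.01), a share called of 60% against 60.1% over all names. All 7 names of miR-205, of basal epidermis, rose, and miR-205 itself was at 79.5, 53.03 and 63.03 in the controls and 116, 125 and 129 under slick oil (log2 fold change 0.93 ± 0.11 with adjusted p = 2.980e-09). The miR-200 family, which holds cells in an epithelial state, divided by member. miR-429 rose from 104 ± 5.06 to 148 ± 14.1 (log2 fold change 0.51 ± 0.09 with adjusted p = 5.047e-06), while miR-200b-3p fell from 245 ± 14.1 to 206 ± 20.5 (log2 fold change -0.24 ± 0.07 with adjusted p = 0.00367). The latter call was lost without slick library 9 (-0.17, adjusted p = 0.0686) and with the abundance trend removed (-0.099, adjusted p = 0.246). miR-203, of the outer epidermis, had 0 of 8 names called, and with the abundance trend removed its leading name passed as higher (0.23, adjusted p = 1.971e-05).

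**Figure D3:**
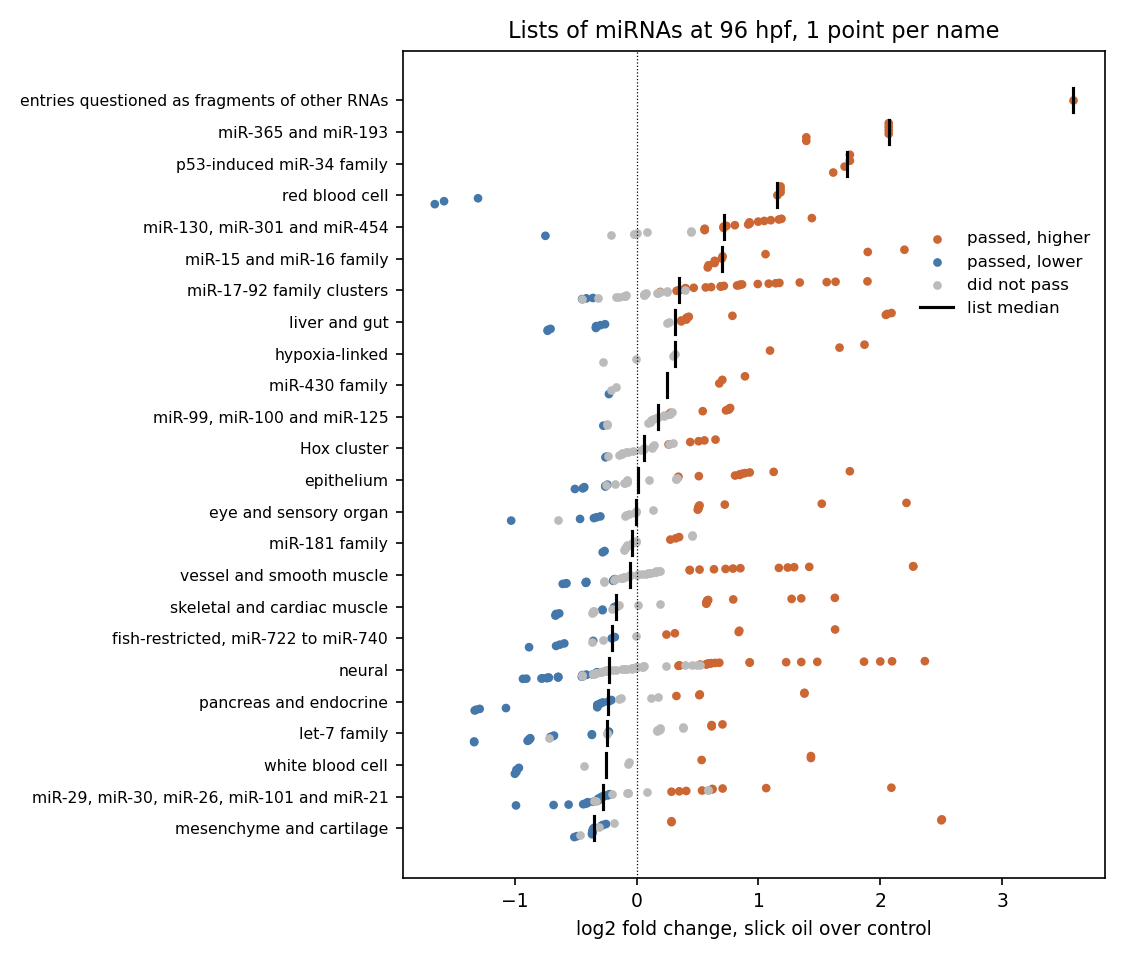
Log2 fold change of slick oil over control (horizontal axis) for the tested names of 24 miRNA lists (rows), with calls coloured by direction, names that did not pass in grey and a bar at the list median. The miR-15 and miR-16, miR-34 and miR-365 lists lie wholly above 0, and the red blood cell list is split between miR-144, at -1.66 to -1.30, and miR-451, at 1.16 to 1.18. Names of miR-34 and several of miR-365 had enough counts for testing mainly in slick oil libraries, and miR-15b had them there alone.

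In the miR-17-92 family clusters, which promote proliferation, 26 of 48 tested names rose and 3 fell (median log2 fold change 0.35), beside a median of -0.01 over all 671 names. The share called was 60.4%, against 60.1% over all names, of which 32.5% were higher and 27.6% lower. All 9 names of miR-92 and 4 of 5 of miR-106 were higher, and miR-106a-5p was at 31.8, 25.5 and 46.1 in the controls and 75.5, 69.9 and 76.7 under slick oil (log2 fold change 1.08 ± 0.15 with adjusted p = 1.716e-07). miR-25 had 0 of 4 names called. The count of lower names in these clusters was 1 without control library 7 or 9 or slick library 8. Of the 30 names of the miR-15 and miR-16 family 9 had enough counts to be tested, and all 9 rose. miR-16 was at 32.9, 30.6 and 36.7 in the controls and 50.5, 50.2 and 56.2 under slick oil (log2 fold change 0.64 ± 0.16 with adjusted p = 6.810e-04), and miR-15b rose from 3.04 ± 1.87 to 11.8 ± 1.64 (log2 fold change 1.897 ± 0.34 with adjusted p = 9.011e-05). In the miR-34 family, induced by p53, all 4 tested names rose, and miR-34b-5p was at 6.81, 6.12 and 12.2 in the controls and 26.4, 24.3 and 36.5 under slick oil (log2 fold change 1.75 ± 0.27 with adjusted p = 8.147e-07). No control reached the lowest slick oil library in these 3 names. miR-15b met the count filter in slick oil libraries alone, which favoured its rise and its separation. The miR-34 names, copies included, together summed to 26.5 to 49.9 in the controls and 98.1 to 146 under slick oil. They met the count filter mainly through the slick oil libraries, which favoured their rise. The related miR-130, miR-301 and miR-454 had 18 of 26 names higher and 1 lower, with a median of 0.71 and a share called of 73.1%. miR-454-3p rose from 80.99 ± 6.52 to 134 ± 4.25 (log2 fold change 0.71 ± 0.09 with adjusted p = 2.819e-08), and the exception, miR-301b-5p, fell from 146 ± 7.25 to 86.8 ± 5.34 (log2 fold change -0.75 ± 0.09 with adjusted p = 3.274e-09). On loess scaling these had 9 higher and 2 lower, and the miR-17-92 family clusters had 21 higher and 5 lower. All 6 tested names of the miR-365 and miR-193 list were miR-365 and rose. Together they summed to 31.8 to 47.04 in the controls and 119 to 147 under slick oil. That sum counts copies with equal values more than once, so the 6 names are not 6 separate measurements. The 3p names were so scarce in controls that they met the count filter through the slick oil libraries, which favoured their rise. miR-365 was at 13.6, 14.3 and 15.99 in the controls and 37.4, 40.3 and 38.8 under slick oil (log2 fold change 1.39 ± 0.21 with adjusted p = 5.449e-07), with both groups tight around their means.

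More names fell than rose in the let-7 family. In this family, which rises as vertebrate cells differentiate, 4 of 28 tested names rose and 14 fell (median log2 fold change -0.24). The share called was 64.3%, against 60.1% over all names. let-7a was at 135, 160.1 and 151 in the controls and 91.6, 80.6 and 69.9 under slick oil (log2 fold change -0.89 ± 0.096 with adjusted p = 4.832e-10), with control and slick oil libraries far apart. The most abundant let-7 name, let-7c, did not pass (log2 fold change 0.17 ± 0.08 with adjusted p = 0.124). The 4 let-7 names that rose became 0 without control library 9 or slick library 7, 2 without slick library 9 and 0 with the abundance trend removed. miR-430, whose zebrafish members degrade maternal transcripts after genome activation, had 3 of 6 names higher and 1 lower, a share called of 66.7%. miR-430b rose from 38.2 ± 8.01 to 60.8 ± 7.46 (log2 fold change 0.68 ± 0.16 with adjusted p = 2.963e-04). The number of lower miR-430 names was 0 without control library 7 or 8 or slick library 7 or 9, 2 without control library 9 and 3 without slick library 8. In miR-99, miR-100 and miR-125, which share clusters with let-7, 7 of 23 tested names rose and 1 fell (median log2 fold change 0.17), a share called of 34.8%. The lower count was 0 without control library 8 or 9 or slick library 8 or 9, and 3 on loess scaling or with DESeq2 size factors. The miRNAs of the Hox clusters, miR-10 and miR-196, had 5 of 23 names higher and 2 lower, a share called of 30.4% against 60.1% over all names. On loess scaling the Hox list had 9 higher and 1 lower. The number of higher Hox names was 2 without control library 7, 3 without slick library 9 and 9 without slick library 7, where 1 was lower. The miR-181 family had 3 of 15 names higher and 2 lower, a share called of 33.3%. Without control library 7 it had 1 higher, and with the abundance trend removed 2 higher and 0 lower. Widely expressed miRNAs of differentiated tissue (miR-29, miR-30, miR-26, miR-101 and miR-21) had 27 of 45 names lower and 9 higher, a share called of 80%. Of these, miR-26a went from 146 ± 5.66 to 109 ± 18.8 (log2 fold change -0.41 ± 0.09 with adjusted p = 2.906e-04). miR-21, at log2 fold change -0.27 ± 0.06 with adjusted p = 1.950e-04, did not pass with the abundance trend removed (-0.05, adjusted p = 0.485).

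Among the hypoxia-linked names 3 of 7 rose and 0 fell, a share called of 42.9% against 60.1% over all names. miR-210 supplied 1 of the rises, with miR-210-5p higher (log2 fold change 1.09) out of 3 tested names. miR-462 supplied 2 of the rises, and miR-731-5p, from the same locus, was at 28.4, 45.9 and 38.6 in the controls and 37.4, 41.05 and 34.95 under slick oil (log2 fold change -0.01 ± 0.18 with adjusted p = 0.979), where the groups overlap. The most abundant name of miR-210, the miRNA induced by hypoxia-inducible factor, was at 39.7, 40.8 and 40.5 in the controls and 52.01, 53.2 and 43.3 under slick oil (log2 fold change 0.295 ± 0.15 with adjusted p = 0.114). The slick oil libraries lay above the controls, but the difference did not pass. The fish-restricted list from miR-722 to miR-740 had 5 of 15 names higher and 7 lower, a share called of 80%. Its lower names numbered 4 without control library 8 or slick library 9 and 3 without control library 9, and its higher names 3 without control library 7. The list of entries questioned as fragments had 1 tested name, miR-7641.

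The arms of 1 hairpin often changed in different proportion. The log2 ratio of 5p to 3p counts was tested with limma in 122 pairs of arms, from 69 miRNA numbers, and 53 passed (43.4%), 19 with a higher ratio under slick oil and 34 with a lower one. The arm that was scarcer gained in 39 of the 53 and the commoner arm in 14, and in the single-name tests low names rose more often than high ones, as described above. With both arms individually tested in 100 pairs, 20 pairs from 17 numbers had 1 arm higher and the other lower, 6 had both higher and 9 both lower, 46 had 1 arm called and 19 none. Among the 20 were miR-122 and miR-145, whose higher arm met the count filter in slick oil libraries alone. Also among them were miR-122a and miR-145a, with an arm below the minimum of the ratio test in controls. For these the rise of 1 arm was favoured by the filter. With the abundance trend removed, miR-183-5p (0.02, adjusted p = 0.781), miR-183-3p (0.31, adjusted p = 0.371), miR-181a-5p (-0.05, adjusted p = 0.469) and miR-30a-3p (-0.06, adjusted p = 0.43) did not pass. No let-7 name was higher there, so let-7d also left the group. Both arms kept opposite calls in miR-214, miR-132, miR-122, miR-18a, miR-145, miR-140, miR-734 and miR-101b. For the remaining pairs of the 20, values of both arms on loess scaling are not given here.

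miR-214 had the largest change of ratio among pairs with both arms tested. Its log2 ratio was 2.51, 2.76 and 3.15 in the controls and 0.28, -0.301 and -0.38 under slick oil, so that the 5p arm led in controls and the arms were near parity under slick oil, going from 2.81 ± 0.32 in the controls to -0.13 ± 0.36 under slick oil (change -2.94 ± 0.25, adjusted p = 7.167e-04). The 5p arm itself fell from 114 ± 18.1 to 81.5 ± 8.27 as the 3p arm rose. In miR-145, of smooth muscle, the ratio went from -4.94 ± 0.07 in the controls to -2.25 ± 0.37 under slick oil (change 2.69 ± 0.21, adjusted p = 7.167e-04). There the scarce 5p arm rose from 3.096 ± 0.294 to 15.3 ± 2.71 and the 3p arm fell from 110.5 ± 6.602 to 73.7 ± 8.74. That 5p arm was below the minimum of 5 counts in controls and entered through the slick oil libraries. An arm did so in 17 of the 122 pairs, this one included, and 10 of the 17 passed. The liver miR-122 went from 5.75 ± 0.11 in the controls to 3.101 ± 0.58 under slick oil (change -2.65 ± 0.298, adjusted p = 0.00184), with its 3p arm rising from 5.16 ± 0.4900 to 21.5 ± 6.09 against the fall of the 5p arm given above. miR-132 went from 1.81 ± 0.27 in the controls to -0.68 ± 0.28 under slick oil (change -2.49 ± 0.21, adjusted p = 7.167e-04), which turned the commoner arm from 5p to 3p. The fall of miR-132-5p alone (log2 fold change -0.42 ± 0.17 with adjusted p = 0.0382) was lost without control library 8 or 9 or any 1 slick library, with log2 fold changes of -0.44 to -0.36 and adjusted p between 0.05104 and 0.1598. miR-18a went from 4.798 ± 0.66 in the controls to 2.39 ± 0.47 under slick oil (change -2.41 ± 0.397, adjusted p = 0.00921), miR-135b from 1.62 ± 0.17 in the controls to 0.41 ± 0.0997 under slick oil (change -1.21 ± 0.14, adjusted p = 0.00189) and miR-101b from -4.18 ± 0.36 in the controls to -2.86 ± 0.32 under slick oil (change 1.32 ± 0.25, adjusted p = 0.01199). In miR-143, whose single arms passed in opposite directions, the ratio did not pass, at -2.36, -2.71 and -2.25 in the controls and -1.56, -2.21 and -1.49 under slick oil (adjusted p = 0.0622). On loess scaling 47 of the pairs passed, 19 with a higher ratio and 28 with a lower one, and with slick library 7 left out 34 passed.

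**Figure D4:**
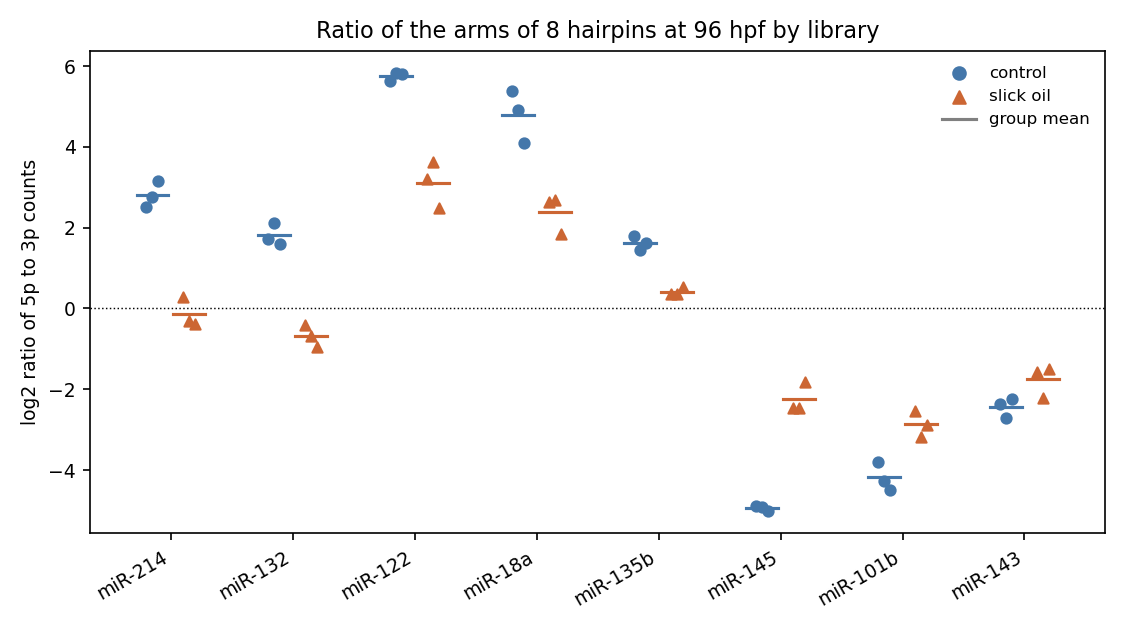
Log2 ratio of 5p to 3p counts (vertical axis, pseudocount of 0.5) of 8 hairpins in each of the 3 control libraries (circles) and 3 slick oil libraries (triangles), with lines at the group means. In miR-214 and miR-132 the ratio crosses or reaches 0 under slick oil, in miR-122 and miR-18a it falls towards 0 and in miR-145 and miR-101b it rises towards 0.

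To see how the response at 96 hpf stood beside the earlier stages, the effect of slick oil was compared between stages in 1 fit of 18 slick oil and control libraries, over 691 tested names. The effect at 96 hpf differed from that at 48 hpf in 210 names (30.4%), 83 higher (12%) and 127 lower (18.4%). It differed from that at 24 hpf in 217 names (31.4%), 83 higher and 134 lower (19.4%). With the abundance trend removed these counts were 71 and 131, and leaving out 1 of the 6 libraries of 96 hpf gave 128 to 194 and 145 to 209, the lowest of both without control library 8 of 96 hpf. The excess of lower effects was not stable. Against 48 hpf, 40 were higher and 31 lower with the trend removed, 85 and 61 without control library 7, and 54 and 140 without slick library 7. Against 24 hpf these were 72 and 59, 111 and 56, and 79 and 129.

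miRNAs whose effect was higher at 96 hpf, with or without an earlier rise, included miR-15c-5p. Its log2 fold changes were 0.84 ± 0.16 at 24 hpf, 0.74 ± 0.17 at 48 hpf and 2.12 ± 0.18 at 96 hpf, and the difference between 96 and 48 hpf was 1.38 ± 0.27, adjusted p = 3.470e-04. In controls miR-15c-5p was at 37.9 ± 7.27, 31.2 ± 0.722 and 14.2 ± 1.75 normalised counts at 24, 48 and 96 hpf, and under slick oil at 67.01 ± 7.597, 52.1 ± 7.93 and 62.6 ± 7.92. The control mean was lowest at 96 hpf, and the means under oil stayed above every control mean. miR-106a-5p showed -0.27 ± 0.15 at 24 hpf, 0.04 ± 0.15 at 48 hpf and 1.01 ± 0.17 at 96 hpf (96 minus 24 hpf 1.28 ± 0.23, adjusted p = 1.195e-04). For miR-451 the values were -1.23 ± 0.68 at 24 hpf, -0.37 ± 0.34 at 48 hpf and 1.08 ± 0.21 at 96 hpf (96 minus 24 hpf 2.304 ± 0.71, adjusted p = 0.0128). Counts of miR-451 at 24 hpf were few in both groups. Its difference from 48 hpf, 1.44 ± 0.397, adjusted p = 0.007196, did not pass with the abundance trend removed (1.004, adjusted p = 0.113). miR-18a-3p (1.49 ± 0.34, adjusted p = 0.00163) and miR-210-5p (1.24 ± 0.28, adjusted p = 0.00155) were also higher in their effect at 96 than at 48 hpf.

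Other miRNAs fell at 96 hpf and were near their controls before. miR-122-5p had log2 fold changes of -0.02 ± 0.11 at 24 hpf, -0.15 ± 0.09 at 48 hpf and -0.81 ± 0.08 at 96 hpf, with a difference between 96 and 48 hpf of -0.66 ± 0.12, adjusted p = 1.730e-04. Its control level rose from 138 ± 10.9 at 24 hpf and 218 ± 20.04 at 48 hpf to 304 ± 14.9 at 96 hpf, where slick oil libraries held 173 ± 23.5. miR-128-3p gave -0.06 ± 0.07 at 24 hpf, -0.11 ± 0.07 at 48 hpf and -0.72 ± 0.07 at 96 hpf (96 minus 48 hpf -0.62 ± 0.101, adjusted p = 4.792e-05), and miR-301b-5p had a difference of -0.604 ± 0.11, adjusted p = 2.230e-04. miR-132a turned direction, from 1.49 ± 0.35 at 24 hpf, 1.08 ± 0.33 at 48 hpf and -0.49 ± 0.16 at 96 hpf (96 minus 24 hpf -1.98 ± 0.39, adjusted p = 3.053e-04; 96 minus 48 hpf -1.57 ± 0.36, adjusted p = 0.00198). In the 6 libraries of 96 hpf alone the call of miR-132a was lost without control library 8 or 9 or any 1 slick library, with log2 fold changes of -0.46 to -0.37. That call was also lost with DESeq2 (-0.43, adjusted p = 0.127) and by library size (-0.35, adjusted p = 0.0890). miR-212-5p rose less at 96 hpf, with 1.66 ± 0.19 at 24 hpf, 0.78 ± 0.16 at 48 hpf and 0.27 ± 0.104 at 96 hpf (96 minus 24 hpf -1.39 ± 0.22, adjusted p = 3.277e-05). miR-365 rose at every stage, with 2.37 ± 0.21 at 24 hpf, 1.497 ± 0.21 at 48 hpf and 1.31 ± 0.21 at 96 hpf, and its difference of 96 from 24 hpf (-1.06 ± 0.33, adjusted p = 0.0152) was lost without control library 7, 8 or 9 of 96 hpf (-0.97, -1.02 and -0.85).

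**Figure D5:**
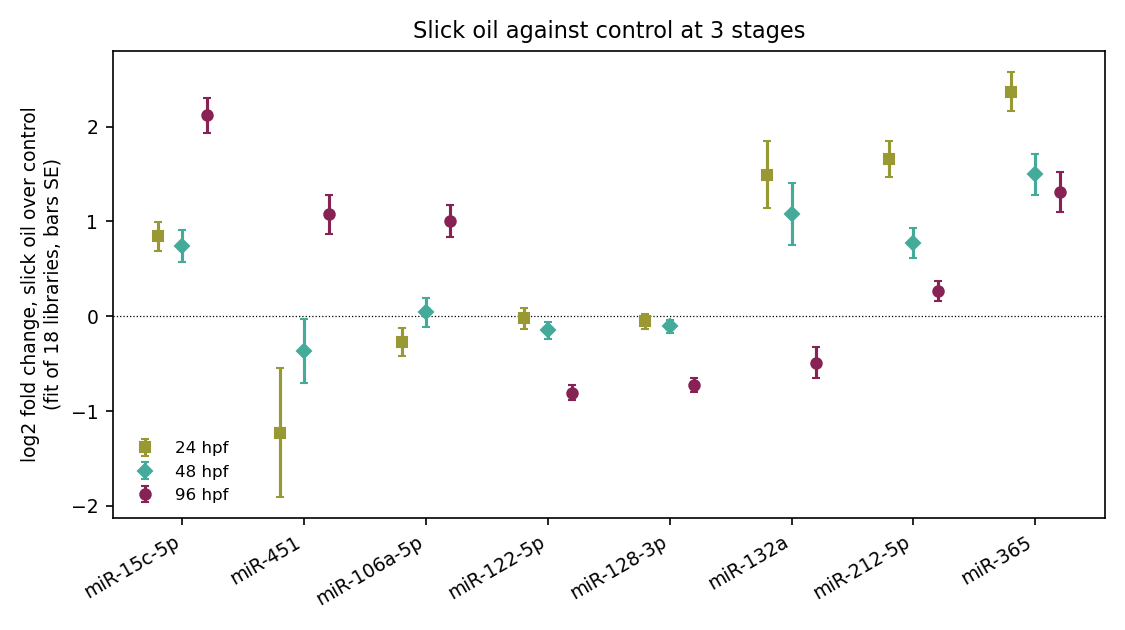
Log2 fold change of slick oil over control (vertical axis, bars SE) at 24, 48 and 96 hpf for 8 miRNA names, from 1 fit of 18 libraries. miR-15c-5p is highest at 96 hpf, miR-122-5p and miR-128-3p leave 0 at 96 hpf, miR-132a is above 0 at 24 and 48 hpf and below it at 96 hpf, and miR-365 is above 0 at all 3 stages.

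Slick oil was lastly set against source oil, the oil taken from the well, which was applied at the same labelled concentration and stage. Both oils were compared with the same 3 controls, so their changes are not independent, and the direct difference was tested over 669 names. It passed in 31 (4.63%), 15 higher under slick oil (2.24%) and 16 lower (2.39%). The count was 6 without slick library 9, 15 without slick library 8, 56 without slick library 7, 14 without source library 7 and 16 without source library 9. Among the 6 lowest differences eligible for naming, those of the red blood cell names miR-144-5p and miR-144 were the largest. miR-144-3p, the name with the lowest fold change against control, was not among these 6. miR-144 was at 94.5 ± 12.6 in controls and 39.1 ± 3.39 under slick oil, while source oil gave 84.7 ± 9.64 (slick minus source -1.11 ± 0.13, adjusted p = 2.265e-09), and miR-144-5p differed by -1.32 ± 0.17, adjusted p = 1.812e-08. Their log2 fold changes against control were -1.28 ± 0.13 with slick oil against -0.17 ± 0.11 with source oil for miR-144, and -1.56 ± 0.17 with slick oil against -0.24 ± 0.14 with source oil for miR-144-5p. The fish-restricted miR-737 held 25.2 ± 1.45 with slick oil against 47.8 ± 4.85 with source oil (-0.92 ± 0.17, adjusted p = 2.227e-04), with 38.8 ± 9.35 in controls. miR-130b-5p was higher under slick than source oil (0.39 ± 0.08, adjusted p = 0.00131). These 4 differences passed whichever of the 3 slick and 3 source libraries was left out.

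Smaller or less stable differences between the oils were found in other miRNAs named above. miR-462 held 75.4 ± 18.4 with slick oil against 50.8 ± 2.59 with source oil (0.57 ± 0.13, adjusted p = 0.00416), and miR-462a-5p differed by 0.91 ± 0.21, adjusted p = 0.00543. Both were above the controls in either oil, with miR-462 at 1.89 ± 0.18 with slick oil against 1.32 ± 0.2005 with source oil. Without slick library 9, the highest of the 3 for miR-462, these differences were 0.36, adjusted p = 0.355 and 0.66, adjusted p = 0.288. miR-204a (0.304 ± 0.07, adjusted p = 0.00414) and miR-211 (0.302 ± 0.07, adjusted p = 0.00414) were higher under slick oil, and without slick library 9 they were at 0.28, adjusted p = 0.0539 and 0.28, adjusted p = 0.0539. miR-211 was also lost without source library 7 (0.27, adjusted p = 0.05502). For miR-214-3p, by contrast with miR-144, the changes against control were 2.52 ± 0.18 with slick oil against 2.27 ± 0.19 with source oil, and the difference between oils did not pass (0.25 ± 0.11, adjusted p = 0.228). For miR-122-3p the changes were 2.07 ± 0.31 with slick oil against 1.95 ± 0.32 with source oil, with a difference of 0.12 ± 0.202, adjusted p = 0.848, which did not pass either.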

How the data were processed

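Small RNA libraries of whole-animal pools were analysed from the authors' deposited tables of whole-number counts per miRNA name, which carry no scaling. A second deposited table holds the authors' log2 fold changes and p-values, per the file headers. DESeq2 is named in the submitters' processing notes. No source used here gives its version, an aligner, a miRNA database or how reads were counted, so what 1 count stands for is not known. In most pairs of replicates the counts varied by less than sampling noise, which makes the p-values depend on that rule.

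Names were filtered with filterByExpr (minimum count of 10) in edgeR 4.0.16 under R 4.3.3 and scaled by TMM. Groups were tested two-sided with edgeR's quasi-likelihood F statistic, adjusted after Benjamini and Hochberg. Levels are counts per 70000 of the scaled library, and precision is limited by 3 libraries per group and totals of 63162 to 93055 counts. Stage differences came from 1 fit of 18 libraries over 1023 joined names, after 6813 blank lines of the 24 hpf table were left out. Oils were compared in 1 fit of 9 libraries over the 1049 names with equal control counts in both 96 hpf tables, leaving out 38. Arm ratios, log2 of 5p over 3p counts with a pseudocount of 0.5 and a mean of at least 5 counts in each arm, were tested with limma 3.58.1. The fits were tested on simulated data.

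Lists match miRNA numbers whatever the letter or arm, and sums over a list add all tested names, copies included. Lists, members and the naming rule were chosen with earlier results of these data known. By that rule 1 name per number and arm was taken, and among those that passed with a mean of at least 10 normalised counts and no overlap between groups the 12 highest and 12 lowest were eligible. So were up to 4 names per list by level, 6 each way for the other contrasts and 6 arm pairs, of which the text gives some. The following lie outside the rule and were chosen after seeing their values, namely let-7a, miR-106a-5p and miR-132-5p in the comparison with control, miR-26a, miR-34b-5p, miR-133a, miR-133b-3p, miR-155, miR-194, miR-204a, miR-205, miR-216a, miR-23-3p, miR-429, miR-430b, miR-499-5p, the arms of miR-101b, miR-135b and miR-143, and miR-214-3p and miR-122-3p between oils.

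Same-numbered control and slick oil libraries deviated together (correlations of 0.140 to 0.175, and -0.111 to -0.0567 for other numbers). Deviations were taken from each group's mean, so positive values for equal numbers force negative ones for the others. The former lie above the limit of 0.1 set for treating libraries as pairs. The labels do not describe a pairing, and the main fits were unpaired. A block for replicate number gave 409 calls, 225 higher and 184 lower. Alternatives were DESeq2 1.42.0, 3 other scalings, other filters, merging of identical names, the block and leaving out each library.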

Additional observations from a re-analysis of the deposited data

Results flagged for a closer look

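The effect of slick oil differed between 96 and 48 hpf in 210 of 691 names by the test of the difference itself. The named miRNAs with a higher effect at 96 hpf were miR-18a-3p (1.49 ± 0.34, adjusted p = 0.00163), miR-451 (1.44 ± 0.397, adjusted p = 0.007196), miR-33a-3p (1.43 ± 0.403, adjusted p = 0.00873), miR-15c-5p (1.38 ± 0.27, adjusted p = 3.470e-04) and miR-210-5p (1.24 ± 0.28, adjusted p = 0.00155), as differences of log2 fold change ± SE. Those with a lower effect were miR-132a (-1.57 ± 0.36, adjusted p = 0.00198), miR-122-5p (-0.66 ± 0.12, adjusted p = 1.730e-04), miR-128-3p (-0.62 ± 0.101, adjusted p = 4.792e-05) and miR-301b-5p (-0.604 ± 0.11, adjusted p = 2.230e-04). With the abundance trend removed, miR-33a-3p did not pass (1.08, adjusted p = 0.0729).

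Between 96 and 24 hpf the effect differed in 217 of 691 names. It was higher at 96 hpf for miR-451 (2.304 ± 0.71, adjusted p = 0.0128), miR-15c-5p (1.28 ± 0.26, adjusted p = 4.640e-04), miR-106a-5p (1.28 ± 0.23, adjusted p = 1.195e-04), miR-18 (1.25 ± 0.33, adjusted p = 0.00473) and miR-730 (1.13 ± 0.35, adjusted p = 0.0275). It was lower for miR-132a (-1.98 ± 0.39, adjusted p = 3.053e-04), miR-212-5p (-1.39 ± 0.22, adjusted p = 3.277e-05), miR-25-3-5p (-1.28 ± 0.38, adjusted p = 0.00997) and miR-365 (-1.06 ± 0.33, adjusted p = 0.0152). miR-451 was at 4.65 ± 2.01 normalised counts in controls and 1.83 ± 1.64 under slick oil at 24 hpf, where counts are few. The difference for miR-25-3-5p was lost without control library 8 (-0.97, adjusted p = 0.101), and that for miR-730 without control library 8 (1.01, adjusted p = 0.0745) or slick library 7 (1.02, adjusted p = 0.0596), all of 96 hpf.

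Slick and source oil differed directly at 96 hpf in 31 of 669 names. Lower under slick oil were miR-144-5p (-1.32 ± 0.17, adjusted p = 1.812e-08), miR-144 (-1.11 ± 0.13, adjusted p = 2.265e-09), miR-737 (-0.92 ± 0.17, adjusted p = 2.227e-04), miR-223-5p (-0.57 ± 0.17, adjusted p = 0.0461) and miR-734-5p (-0.39 ± 0.12, adjusted p = 0.0444). Higher were miR-462a-5p (0.91 ± 0.21, adjusted p = 0.00543), miR-24-5p (0.64 ± 0.18, adjusted p = 0.0236), miR-462 (0.57 ± 0.13, adjusted p = 0.00416), miR-130b-5p (0.39 ± 0.08, adjusted p = 0.00131), miR-204a (0.304 ± 0.07, adjusted p = 0.00414) and miR-211 (0.302 ± 0.07, adjusted p = 0.00414). Leaving out slick library 8 or 9 or any source library ended the calls of miR-223-5p and miR-734-5p, which were at -0.32 and -0.24 without slick library 9. That of miR-24-5p ended without slick library 8 or 9 or source library 7 or 9, and was at 0.47 without source library 7.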

How the results depend on the processing

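Counts of calls in slick oil against control stayed within 1.5 times 403 under every alternative but a mean count of at least 50, which left fewer names to test and gave 249 calls, 128 higher and 121 lower. Other counts were 325 with DESeq2, 341 with identical names merged, 420 without a filter, 409 with replicate number as a block, and, with closely agreeing slick libraries averaged (chosen after the data were seen), 392 for 7 and 8 and 370 for 8 and 9. Leaving out 1 library gave 350 to 378 calls, 189 to 215 higher and 161 to 177 lower. By scaling, 54.1% of calls were higher with TMM, 52.7% with DESeq2 size factors, 60.6% by library size and 49.9% with the abundance trend removed, and the median over all names lay between -0.03 and 0.05.

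Values of 13 name and setting combinations changed sign. miR-731-5p, main value -0.01, was 0.053 by library size and, with 1 library left out, between -0.171 (control library 7) and 0.147 (control library 8), also above 0 without slick library 7 or 9. With the abundance trend removed miR-182-5p was 0.150, miR-203 0.232, miR-206 0.014, miR-1 0.0071, miR-183-5p 0.018, miR-126-3p 0.028 and miR-25 0.025. With a mean count of at least 50 miR-146a was 0.020 and miR-203 0.0048. The cause was not tested. Of the other combinations 1283 kept direction and side of the threshold, 80 kept direction and lost the call and 20 gained it. The block made miR-430a-3p (-0.22, adjusted p = 0.0485) and miR-10b-5p (0.14, adjusted p = 0.0273) pass beside miR-223-5p, and among the names given it changed no other call. miR-10b-5p also passed with the abundance trend removed (0.376, adjusted p = 7.540e-09) and by library size (0.197, adjusted p = 0.00368). miR-430a-3p also passed with DESeq2 size factors (-0.232, adjusted p = 0.0349). DESeq2 did not call miR-375-3p (-0.23, adjusted p = 0.0886), miR-132-5p (-0.43, adjusted p = 0.1196), miR-132a (-0.43, adjusted p = 0.127) or miR-138 (0.55, adjusted p = 0.0712). Nor did it call miR-734-3p, miR-100b, miR-92a-3p, miR-724 or miR-183-3p.

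In the stage contrasts only libraries of 96 hpf were left out, and between oils only slick and source libraries. For 96 minus 48 hpf removing the abundance trend gave 71 calls, 40 higher and 31 lower, a mean count of at least 50 gave 95, 44 and 51, and no filter gave 82 lower, and leaving out 1 library gave 128 to 194, 54 to 91 higher and 61 to 140 lower. For 96 minus 24 hpf the trend removed gave 131 calls with 59 lower, a mean count of at least 50 gave 121 with 50 lower, and leaving out 1 library gave 145 to 209, 72 to 111 higher and 53 to 129 lower. For slick against source oil both the trend removed and a mean count of at least 50 gave 10 lower, and leaving out 1 library gave 6 to 56, 2 to 30 higher and 4 to 26 lower. The block gave 211, 225 and 31 in these 3 contrasts. For arm ratios a mean of at least 20 counts in each arm gave 34 pairs with 21 lower, the block gave 39, a pseudocount of 2 gave 51 and leaving out 1 library gave 34 to 45, 13 to 17 higher and 21 to 28 lower. With few counts per name, the 495 untested names and changes below about 0.2 on the log2 scale are poorly resolved.

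Counts within lists also moved by more than 1.5 times with other scalings or tools, some of which follow. By library size lower names were 7 in muscle, 7 in vessel, 4 in the fish-restricted and 0 in the Hox list, and higher names 8 in let-7 and 9 in the Hox list. With DESeq2 higher names were 12 in the neural, 0 in the let-7, 2 in the Hox, 1 in the miR-181 and 3 in the fish-restricted list. On loess scaling the hypoxia-linked list had 1 lower name.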
